A study of Homo sapiens with 6 samples.

Results

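The EGF receptor, the ligands that activate it or its partner receptors, and proteins that restrain it were followed at the transcript level after NEAT1 silencing in BT-549 cells. The 10 genes were chosen by symbol, with earlier results of these data known. They were the receptors EGFR and ERBB3, the ligands HBEGF, AREG, EREG, TGFA, BTC and NRG1, and the inhibitors ERRFI1 and LRIG1. All 10 were among the 25545 genes of the expression table. BT-549 cells are a long-established line of triple-negative breast cancer (TNBC). Transcriptomes were sequenced from 3 libraries of cells transfected with a control siRNA (BT-549/CsiRNA) and 3 libraries of cells transfected with an siRNA against the long noncoding RNA NEAT1 (BT-549/NEAT1siRNA), each 48 h after transfection, and the comparison asks which transcripts depend on NEAT1. Both groups were of the same parental line, grown in serum with insulin, and carried no other labelled treatment. The titles of the samples also bear the prefix tet, which the labels do not explain. The use of a single cell line and a single siRNA against NEAT1 limits what the groups can stand for. Effects of that siRNA on other RNAs cannot be told apart from loss of NEAT1.

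EGFR is a receptor tyrosine kinase of the cell surface that pairs with itself or with ERBB2, ERBB3 or ERBB4 when a ligand binds, and then signals through the RAS/ERK and PI3K/AKT branches. EGF, TGFA, AREG, EREG, BTC and HBEGF bind EGFR, whereas NRG1 binds ERBB3 and ERBB4. The ligands are made as membrane-bound precursors that are cut free by metalloproteases, and EGFR is expressed in many TNBC cells that lack the estrogen receptor and amplified ERBB2.

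The start regions of 4 of the genes are shown because they set the abundant transcripts beside the scarce ones, namely HBEGF and EGFR, which fell after silencing, and AREG and EREG, which were represented by few reads in any library. Each line gives the 250 bases before the transcript start on the coding strand, from the RefSeq promoters of GRCh38.p14, which held 8 of the 10 genes (all but NRG1 and ERBB3). The windows lie at chr5:140346604-140346853 on the minus strand (HBEGF), chr7:55018767-55019016 on the plus strand (EGFR, the first of 2 windows listed), chr4:74444886-74445135 on the plus strand (AREG) and chr4:74364895-74365144 on the plus strand (EREG). Capitals mark every match, on either strand, to TATAAA (the TATA box), GGGCGG (a GC box), CCAAT (the CCAAT box), CACGTG (an E-box), TGACGTCA (a cAMP response element), TGANTCA (an AP-1 site) or the NF-κB motif.
HBEGF: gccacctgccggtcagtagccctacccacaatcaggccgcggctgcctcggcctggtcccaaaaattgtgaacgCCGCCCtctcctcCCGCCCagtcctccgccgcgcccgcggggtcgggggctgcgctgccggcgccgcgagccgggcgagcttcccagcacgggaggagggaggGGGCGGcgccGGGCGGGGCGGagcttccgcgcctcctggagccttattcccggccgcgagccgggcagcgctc
EGFR: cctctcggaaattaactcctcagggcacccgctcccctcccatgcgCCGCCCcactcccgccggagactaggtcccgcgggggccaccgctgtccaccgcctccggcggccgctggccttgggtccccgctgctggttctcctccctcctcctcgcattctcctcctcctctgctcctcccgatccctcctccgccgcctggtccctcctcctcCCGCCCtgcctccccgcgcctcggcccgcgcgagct
AREG: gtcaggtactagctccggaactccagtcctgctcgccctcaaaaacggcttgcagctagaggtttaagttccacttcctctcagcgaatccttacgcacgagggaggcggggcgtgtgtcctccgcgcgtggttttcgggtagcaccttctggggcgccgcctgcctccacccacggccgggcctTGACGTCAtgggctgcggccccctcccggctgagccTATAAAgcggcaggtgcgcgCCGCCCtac
EREG: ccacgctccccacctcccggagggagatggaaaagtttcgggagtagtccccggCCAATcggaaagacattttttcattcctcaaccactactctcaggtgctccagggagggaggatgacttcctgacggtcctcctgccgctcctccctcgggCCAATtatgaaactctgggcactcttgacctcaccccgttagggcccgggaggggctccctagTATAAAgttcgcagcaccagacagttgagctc

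The HBEGF window held 5 matches to GGGCGG, of which a pair shares 1 base, and the EGFR window held 2, and neither held a match to the 6 other motifs. GC content was 76.4% for HBEGF and 73.6% for EGFR, above the upper quartile of 68% over 35116 RefSeq windows of the same length. AREG held TATAAA 29 bases before its start, TGACGTCA 65 bases before it and 1 match to GGGCGG, and EREG held TATAAA 32 bases before its start and 2 matches to CCAAT. Over the 35116 windows, 42.6% held GGGCGG, 10.7% held TATAAA, 32.0% held CCAAT, 1.65% held TGACGTCA, 6.34% held CACGTG, 6.57% held TGANTCA and 9.96% held the NF-κB motif. Among the windows not printed, BTC and TGFA were those that held the NF-κB motif, with 2 and 1 matches, and LRIG1 and ERRFI1 held both GGGCGG and CCAAT. The contrast between the printed windows did not hold for all scarce genes. TGFA had a GC content of 75.6%, 3 matches to GGGCGG and no TATAAA. BTC and LRIG1 also held no TATAAA, and LRIG1 held 3 matches to GGGCGG. The abundant ERRFI1 had a GC content of 75.2%, 1 match to GGGCGG and no TATAAA. A match is a run of letters and no measure of binding.

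NEAT1, the targeted RNA, measured 13.4, 7.68 and 10.8 TPM (a transcript level scaled by gene length and by library total) in the CsiRNA libraries and 4.36, 2.96 and 2.73 TPM in the NEAT1siRNA libraries. The groups did not overlap, and the mean with NEAT1siRNA was 31.5% of that with CsiRNA (log2 fold change -1.41, SE 0.14, limma adjusted p = 1.21e-07). Libraries held 15787257 to 20342818 reads, as recovered by joining both deposited tables. Of 10721 genes tested (mean TPM of at least 1), 1498 changed, or 14.0%, with 963 lower (8.98%) and 535 higher (4.99%) and a median log2 fold change of -0.04. The split depends on scaling, since quantile normalization gave 1109 lower and 1082 higher, and median centring of the libraries gave 954 lower and 1158 higher. NEAT1siRNA replicates 1 and 2 leaned in opposite directions with the GC content of transcripts (Spearman rho over 10424 genes 0.66 and -0.71). CsiRNA replicates 1, 2 and 3 leaned less (-0.20, -0.33 and 0.46), as did NEAT1siRNA replicate 3 (0.13). The part of these leanings in the results below was tested by removing a trend on GC content and length. All 5 mesenchymal markers (VIM, ZEB1, CDH2, FN1, SPARC) were above 1 TPM, with sums of 1490 to 1684 TPM with CsiRNA and 1364 to 1585 TPM with NEAT1siRNA, and CDH2 and FN1 fell (limma adjusted p = 0.0186 and 0.00116). The CDH2 call was lost with no TPM filter, without CsiRNA replicate 1 or 2 and without NEAT1siRNA replicate 3 (limma adjusted p of 0.0539 to 0.143), and that of FN1 with no TPM filter (0.0515). ESR1 was listed at 0 and 7 of 10 luminal and epithelial markers were under 0.1 TPM (sums of 7.61 to 7.87 and 7.69 to 8.88 TPM). The 2 of them above 1 TPM, ERBB2 and KRT18, did not pass (log2 fold change -0.04 and 0.29, limma adjusted p = 0.812 and 0.0801). Of 10 leukocyte, endothelial and fibroblast markers, CD68, COL1A1 and ACTA2 were above 1 TPM and CD3E, VWF and CLDN5 were among those listed at 0, with sums of 175 to 211 TPM with CsiRNA and 160 to 181 TPM with NEAT1siRNA. None of the 3 tested markers passed, while limma-voom on reads called PTPRC lower (7, 14 and 8 reads, then 3, 1 and 4, adjusted p = 0.0265) and ACTA2 higher (log2 fold change 0.42, adjusted p = 0.0334). The part of these differences in the results was not tested.

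Of the 10 genes, EGFR, HBEGF, NRG1 and ERRFI1 reached the TPM minimum and were tested, and 3 of the 4 fell (EGFR, HBEGF and NRG1), beside 8.98% of all genes tested that fell and 14.0% that changed. None rose. In bulk RNA, fewer cells that express a gene and less RNA per cell cannot be told apart. The 6 others (AREG, EREG, TGFA, BTC, ERBB3 and LRIG1) had a mean under 1 TPM and were not tested on this scale. In all 4 tested genes the NEAT1siRNA values lay below every CsiRNA value, as they did for 19.3% of genes tested. The plot of levels by library shows a gap between the 4 tested genes and the scarce ones.

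**Figure D1:**
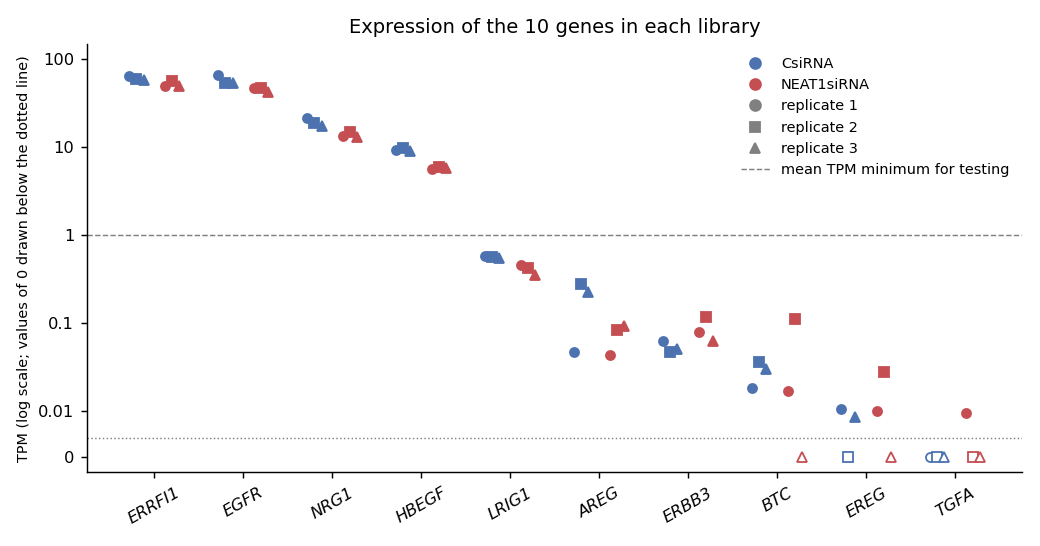
TPM of the 10 genes in each library on a log scale, with CsiRNA in blue, NEAT1siRNA in red, 1 symbol shape per replicate, and values of 0 drawn as open symbols under the dotted line. ERRFI1, EGFR, NRG1 and HBEGF lie above the dashed line at 1 TPM, LRIG1 lies at 0.350 to 0.580 TPM, and the other 5 genes lie below 0.3 TPM in every library.

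Among the receptors, EGFR was the most abundant. EGFR (chr7:55019017-55211628, plus strand, GRCh38, protein-coding) measured 66.2, 53.4 and 54.2 TPM with CsiRNA and 47.7, 47.3 and 42.7 TPM with NEAT1siRNA. CsiRNA replicate 1 stood above the other two control libraries, and the lowest control value still exceeded the highest value after silencing. Mean levels were 57.9 ± 7.20 TPM (SD, n = 3) and 45.9 ± 2.76 TPM (SD, n = 3), a difference of 20.8%, with a log2 fold change of -0.33 (SE 0.10, 95% interval -0.52 to -0.13, limma adjusted p = 0.0250). These levels rest on 7076 to 11010 reads per library, and the antisense gene EGFR-AS1 was at 0.0182 TPM or lower. The call was lost without a TPM filter (limma adjusted p = 0.137), without CsiRNA replicate 1 (log2 fold change -0.23, limma adjusted p = 0.2145) and without NEAT1siRNA replicate 3 (-0.28, limma adjusted p = 0.140), and the fold change shrank to -0.21 (limma adjusted p = 0.00761) once the GC and length trend was removed.

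ERBB2, the receptor that has no ligand of its own and serves as the favoured partner of the others, measured 6.19 ± 0.212 TPM with CsiRNA and 5.98 ± 0.328 TPM with NEAT1siRNA (SD, n = 3 each). Its groups overlapped and no change was called (log2 fold change -0.04, 95% interval -0.23 to 0.15, limma adjusted p = 0.812). EGFR thus exceeded ERBB2 by 8.57 to 10.5 times in the CsiRNA libraries and by 7.41 to 8.11 times in the NEAT1siRNA libraries. These ranges of the EGFR to ERBB2 ratio did not overlap, although with 3 libraries a group an exact two-sided permutation test cannot give a p below 0.1.

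ERBB3 (chr12:56076799-56103505, plus strand), a receptor with little kinase activity of its own that binds NRG1, was scarce. It was represented by 8, 6 and 8 reads with CsiRNA and by 11, 17 and 8 reads with NEAT1siRNA, or 0.0465 to 0.0628 TPM and 0.0623 to 0.117 TPM. The groups touched at 8 reads, and limma-voom on the recovered reads gave a log2 fold change of 0.70 (SE 0.36, 95% interval -0.06 to 1.45, adjusted p = 0.186), a fit in which 20.4% of 13518 genes changed. ERBB4, the other receptor of NRG1, had 0 reads in each CsiRNA library and 0, 7 and 2 reads after silencing. Both receptors of NRG1 were thus at 0.117 TPM or lower in every library, and a change of a few reads in either was not detectable at this depth.

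HBEGF, a ligand of EGFR and ERBB4 that binds heparin and is also the cell surface receptor of diphtheria toxin, had the largest fall of the 4 tested genes. HBEGF (chr5:140332843-140346603, minus strand, protein-coding), whose start region is printed above, measured 9.45, 9.84 and 9.20 TPM with CsiRNA and 5.64, 6.01 and 5.89 TPM with NEAT1siRNA. Each group was narrow and the groups lay far apart, with 422 to 507 reads per control library and 265 to 305 after silencing. Mean levels were 9.50 ± 0.319 TPM and 5.85 ± 0.189 TPM (SD, n = 3 each), a difference of 38.4%, and the log2 fold change was -0.62 (SE 0.09, 95% interval -0.80 to -0.43, limma adjusted p = 4.83e-05). By log2 fold change it ranked 99 from the lowest of 10721 genes, and it was called in each of the 17 other settings, at -0.69 to -0.56.

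NRG1 (chr8:31639222-32855666, plus strand), the neuregulin that acts through ERBB3 and ERBB4, was the most abundant ligand transcript and also fell. It measured 21.8, 18.7 and 17.7 TPM with CsiRNA and 13.6, 15.1 and 13.0 TPM with NEAT1siRNA, on 2959 to 4948 reads per library. CsiRNA replicate 1 was again the highest, and the groups were apart by 17.7 against 15.1 TPM at their nearest. Mean levels were 19.4 ± 2.13 TPM and 13.9 ± 1.10 TPM (SD, n = 3 each), a difference of 28.5%, and the log2 fold change was -0.45 (SE 0.10, 95% interval -0.66 to -0.25, limma adjusted p = 0.00254). Without any filter on TPM the adjusted p was 0.0632 (limma), and the call was kept in the other 16 settings.

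**Figure D2:**
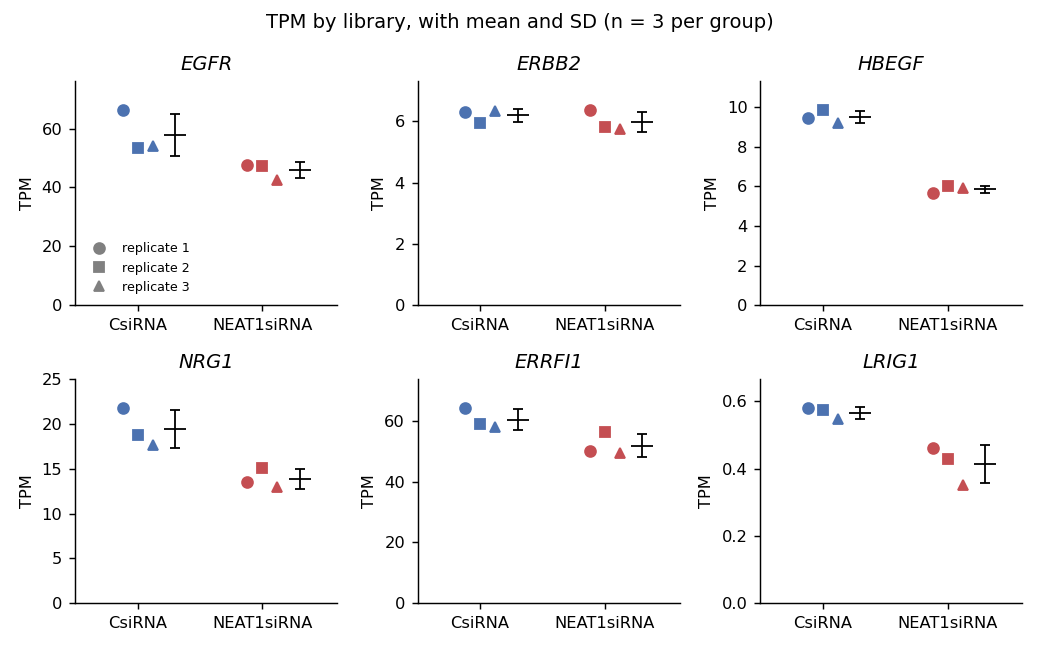
TPM by library for 6 genes on linear axes from 0, with 1 symbol shape per replicate and the mean and SD (n = 3) in black beside each group. HBEGF, NRG1, EGFR, ERRFI1 and LRIG1 have every NEAT1siRNA value below every CsiRNA value, and ERBB2 overlaps, with means of 6.19 and 5.98 TPM.

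HBEGF and NRG1 together made up 98.6% to 99.6% of the summed TPM of the 11 ligands in each library. Their sum was 31.3, 28.6 and 26.9 TPM with CsiRNA and 19.2, 21.1 and 18.9 TPM with NEAT1siRNA, so the summed ligand level followed these genes. Relative to EGFR in the same library, HBEGF stood at 14.3%, 18.4% and 17.0% of its TPM with CsiRNA and at 11.8%, 12.7% and 13.8% with NEAT1siRNA. The lowest control ratio lay above the highest ratio after silencing. NRG1 stood at 32.7% to 35.1% and 28.4% to 32.0% of the EGFR level, also without overlap, at 32.7% against 32.0% for the nearest libraries. The limit of the permutation test given for the EGFR to ERBB2 ratio holds for these ratios too. How often the ratios of other gene pairs separate in this way was not counted.

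The other EGFR ligands were scarce in both groups. AREG (amphiregulin, chr4:74445136-74455005, plus strand) had 1, 6 and 6 reads with CsiRNA and 1, 2 and 2 with NEAT1siRNA, so that at least 1 library of each group had a single read. EREG (epiregulin, chr4:74365145-74388749, plus strand) had 1, 0 and 1 reads and then 1, 3 and 0. BTC (betacellulin, chr4:74744759-74794523, minus strand), which like HBEGF and EREG can also bind ERBB4, had 1, 2 and 2 reads and then 1, 7 and 0. TGFA (chr2:70447284-70554193, minus strand) had a single read in NEAT1siRNA replicate 1 and 0 reads elsewhere. A count of 0 allows up to 3 reads, which for TGFA corresponds to 0.0252 to 0.0311 TPM and for AREG to 0.114 to 0.141 TPM, for counting error only. No fold change was therefore read from these genes, and a fall or a small rise in any of them was not detectable at this depth. EREG, AREG and BTC lie near one another on chromosome 4.

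Of the ligands outside the chosen genes, EGF itself had 2, 2 and 3 reads with CsiRNA and 0, 4 and 2 with NEAT1siRNA, EPGN had 1 to 3 reads in every library, NRG2 had 0 to 5, NRG3 had at most 1, and NRG4 was listed at 0. Thus 2 of 11 ligands were tested and both fell, and 2 of 4 receptors were tested and 1 fell, beside 8.98% of all genes tested.

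**Figure D3:**
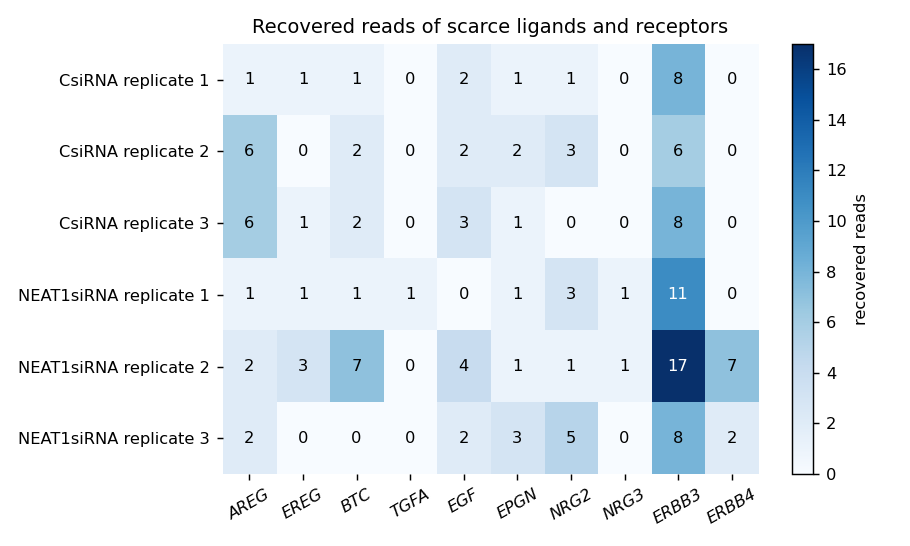
Recovered reads of 10 scarce ligands and receptors (columns) in each library (rows), with darker blue for more reads. ERBB3 is the only one of the 10 with at least 6 reads in every library. NEAT1siRNA replicate 2 holds the highest value of ERBB3, at 17 reads, and of BTC and ERBB4, at 7 reads each.

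ERRFI1 (MIG6), an intracellular protein that binds the EGFR kinase domain, blocks it and is itself induced by EGFR signalling, was as abundant as EGFR. ERRFI1 (chr1:8004404-8026309, minus strand) measured 64.5, 59.2 and 58.2 TPM with CsiRNA and 50.1, 56.4 and 49.6 TPM with NEAT1siRNA. The groups did not overlap, but NEAT1siRNA replicate 2, at 56.4 TPM, came close to the lowest control, at 58.2 TPM. Mean levels were 60.6 ± 3.37 TPM and 52.0 ± 3.78 TPM (SD, n = 3 each), and the log2 fold change was -0.22 (SE 0.09, 95% interval -0.40 to -0.03, limma adjusted p = 0.111), which did not pass the test. It passed under 5 settings, among them quantile normalization (limma adjusted p = 0.0331), removal of the GC and length trend (-0.18, limma adjusted p = 0.00604) and leaving out NEAT1siRNA replicate 2 (-0.28, limma adjusted p = 0.0182).

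LRIG1 (chr3:66378797-66501263, minus strand), a transmembrane protein that promotes the degradation of EGFR family receptors, was expressed at a low level. It measured 0.580, 0.573 and 0.546 TPM with CsiRNA and 0.462, 0.428 and 0.350 TPM with NEAT1siRNA, on 56, 56 and 65 reads and then 48, 47 and 34. All NEAT1siRNA values were lower, but limma-voom on the reads did not call the difference (log2 fold change -0.40, SE 0.18, 95% interval -0.78 to -0.03, adjusted p = 0.126). In that fit 6 of the 10 genes were tested and EGFR (-0.28, adjusted p = 0.00668), HBEGF (-0.65, adjusted p = 6.25e-05) and NRG1 (-0.43, adjusted p = 0.000207) fell, where 20.4% of all genes changed.

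By mean TPM with CsiRNA, ERRFI1 ranked 948 and EGFR 1008 of 25545 genes, NRG1 ranked 3090 and HBEGF 5289. ERRFI1 and EGFR differed by less than their SDs in CsiRNA cells, at 60.6 and 57.9 TPM, whereas EGFR, NRG1 and HBEGF lay apart from one another in every library. LRIG1, AREG, ERBB3, BTC, EREG and TGFA followed in that order, and from AREG downward the ranges of neighbours over the 6 libraries overlapped. The genes with the pattern over the 6 libraries most like that of EGFR were ZYG11A, HIVEP2 and BIRC6, with Euclidean distances of 0.0524, 0.0613 and 0.0614 between log2(TPM + 1) values taken relative to the CsiRNA mean.

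The inhibitors of the receptor family that were called went in both directions. Of 16 listed, ERRFI1 and LRIG1 included, 14 were tested, 2 fell, 1 rose and 11 did not pass (ERRFI1 among them). The share called was 21.4%, beside 14.0% over all genes tested, where 8.98% fell and 4.99% rose. The median log2 fold change was -0.07 against -0.04 over all genes tested. CD82, a tetraspanin that attenuates EGFR signalling, fell from 16.4 ± 0.633 to 11.7 ± 0.584 TPM (log2 fold change -0.46, limma adjusted p = 0.00122). LRIG2, a relative of LRIG1, fell from 7.27 ± 0.558 to 5.55 ± 0.690 TPM (-0.34, limma adjusted p = 0.0236). PTPN1, the phosphatase PTP1B that acts on internalized receptors, rose from 33.4 ± 0.780 to 40.7 ± 2.83 TPM (0.27, limma adjusted p = 0.0429). Values are mean ± SD of 3 libraries, and the PTPN1 call was lost with no TPM filter and in 5 of the 6 fits without 1 library, all but that without NEAT1siRNA replicate 3 (highest limma adjusted p = 0.172, without CsiRNA replicate 2), and that of LRIG2 with no TPM filter (limma adjusted p = 0.139), without CsiRNA replicate 1 (limma adjusted p = 0.126) and without NEAT1siRNA replicate 3 (limma adjusted p = 0.155).

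Ubiquitin ligases that send EGFR to degradation differed in direction and did not pass the test as reported. CBL gave a log2 fold change of -0.20 (limma adjusted p = 0.214), CBLB one of 0.18 (limma adjusted p = 0.235) and RNF41, which acts on ERBB3, one of -0.07 (limma adjusted p = 0.690), while CBLC was listed at 0. LRIG3 gave 0.21 (limma adjusted p = 0.152) with NEAT1siRNA values above all control values, and it passed in 6 of 17 other settings, as CBLB did in 5 of 16 (lowest limma adjusted p = 0.0151, with voom). PTPRJ gave -0.20, ERBIN -0.09, PTPN2 -0.07, SOCS4 0.01, SOCS5 0.08 and SH3KBP1 0.11 as log2 fold changes, and these 6 did not pass. With the GC and length trend removed, SH3KBP1 alone of the 6 passed, at 0.25 (limma adjusted p = 0.00556).

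Genes of ligand release did not pass the test, 0 of 6 tested of 7 listed beside 14.0% over all genes. The median of the 6 log2 fold changes was -0.09. ADAM17, the main protease that sheds AREG, TGFA, HBEGF and other ligands, measured 24.8 ± 1.73 and 22.3 ± 2.56 TPM (SD, n = 3 each, log2 fold change -0.15, 95% interval -0.35 to 0.05, limma adjusted p = 0.326). With the GC and length trend removed it did pass, at -0.15 (limma adjusted p = 0.0209, and 0.0313 with the replicate block). ADAM10, which sheds EGF and BTC, gave -0.10, and the ADAM17 partners RHBDF1, RHBDF2 and FRMD8 gave -0.16, -0.08 and -0.01. TIMP3, an inhibitor of ADAM17, gave -0.05, and RHBDL2 was at 0 in the control libraries.

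**Figure D4:**
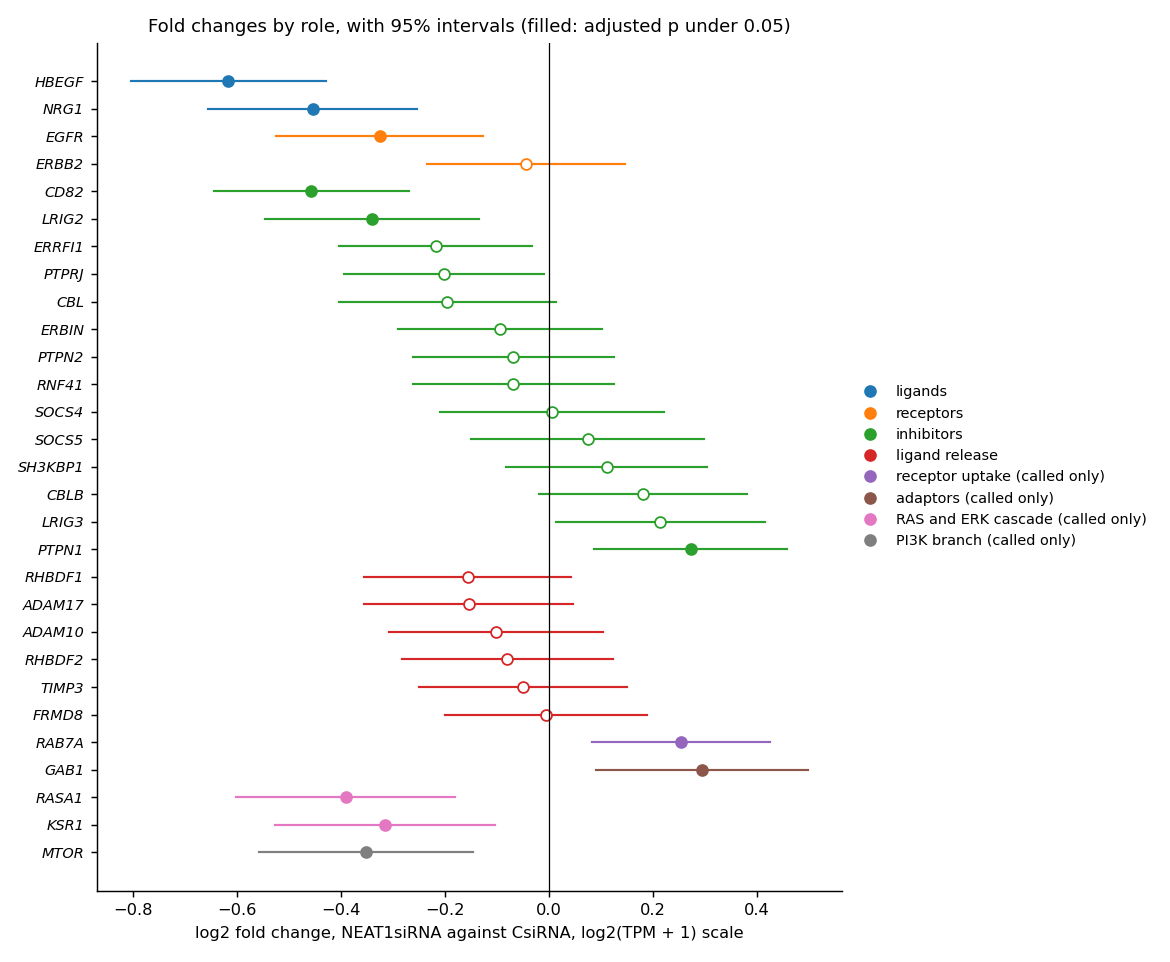
Log2 fold changes (NEAT1siRNA against CsiRNA, log2(TPM + 1) scale) with 95% intervals for the tested ligands, receptors, inhibitors and ligand release genes, and for the called genes of receptor uptake, the adaptors, the RAS and ERK cascade and the PI3K branch, colored by role, with filled points for an adjusted p under 0.05. Of the genes plotted, HBEGF lies lowest at -0.62, CD82 at -0.46 and NRG1 at -0.45 follow, and GAB1 at 0.29 lies highest.

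Downstream of the receptor, 5.88% to 15.4% of the tested genes of each list changed, beside 14.0% of all genes tested. Of 17 genes of receptor uptake, 1 rose (RAB7A, a GTPase of late endosomes, log2 fold change 0.25, limma adjusted p = 0.0413) and 16 did not pass (median 0.04). Of 13 tested adaptors of 15 listed, 1 rose (GAB1, a docking protein, 0.29, limma adjusted p = 0.0472, and 0.0528 with the replicate block) and 12 did not pass (median 0.05). Of 13 RAS and ERK cascade genes, 2 fell, namely RASA1, a GTPase-activating protein that switches RAS off (-0.39, limma adjusted p = 0.0112), and KSR1, a scaffold of the cascade (-0.31, limma adjusted p = 0.0407), and 11 did not pass (median -0.09). Of 12 PI3K branch genes, 1 fell (MTOR, -0.35, limma adjusted p = 0.0198) and 11 did not pass (median 0.02). Without CsiRNA replicate 1 none of these 5 calls was kept (limma adjusted p of 0.0785 to 0.168), nor without NEAT1siRNA replicate 3 (0.0774 to 0.235).

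A mixed list of 6 matrix and surface genes outside the ligands, not all with an EGF-like domain, had 4 tested members. VCAN, a matrix proteoglycan with EGF-like repeats, fell (-0.69, limma adjusted p = 4.83e-05), CSPG4 and MUC1 rose (0.33 each, limma adjusted p = 0.0298 and 0.0399), TMEFF2 gave 0.20 and did not pass, and TMEFF1 and MUC4 were not tested. MUC1 dropped to 0.20 without CsiRNA replicate 2 (limma adjusted p = 0.333), and its call was also lost without NEAT1siRNA replicate 1 (0.103) and with no TPM filter (0.219). The CSPG4 call was lost in 5 of 16 settings, with no TPM filter (0.130) and without CsiRNA replicate 1 or 2 or NEAT1siRNA replicate 1 or 3 (limma adjusted p of 0.0528 to 0.146). Over all 9 lists, 14 of 83 tested genes changed, 9 lower and 5 higher. Without the 4 tested genes chosen here the count was 11 of 79, or 13.9%, beside 14.0% over all genes, and the median was 0.00294 on the log2 scale. With quantile normalization 10 of the listed genes fell and 12 rose, and with median centring 8 fell and 13 rose.

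The fold changes of the 4 tested genes stayed below 0 in each of the 17 other settings. EGFR ran from -0.38 to -0.21, NRG1 from -0.51 to -0.36 and ERRFI1 from -0.28 to -0.16, and the plot of settings shows where calls were lost or gained. HBEGF lay below the other 3 genes in every setting.

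**Figure D5:**
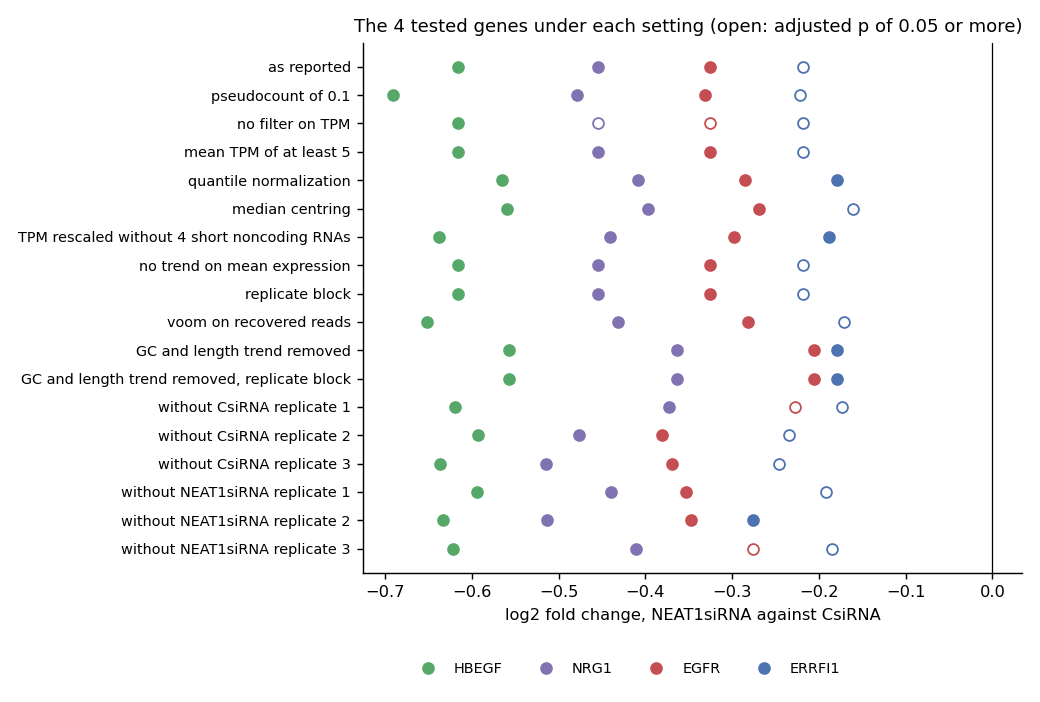
Log2 fold change of HBEGF, NRG1, EGFR and ERRFI1 as reported and under 17 other settings, with filled points for an adjusted p under 0.05. HBEGF is filled throughout, NRG1 is open once, EGFR is open 3 times, and ERRFI1 is filled 5 times.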

How the data were processed

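RNA-seq of 3 BT-549/CsiRNA and 3 BT-549/NEAT1siRNA libraries was used. The authors prepared stranded mRNA libraries from cells cultured in triplicate, aligned reads to GRCh38 with STAR and compared groups with DESeq2 (versions and the tool that made the TPM are not given in the sources used here). The authors deposited TPM per gene, each library summing to 1000000, and a table of their comparison, of which only the mean normalized count (a signal over the 6 libraries) was used here and not its fold changes and p-values. The methods state repeats of experiments in general and do not tie these libraries to separate ones, so p-values measure the spread between these libraries, which may be technical. Libraries of a group differed by more than sampling noise.

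Groups were compared on log2(TPM + 1) for genes averaging 1 TPM or more by limma 3.58.1 (lmFit, eBayes with trend) in R 4.3.3, with Benjamini-Hochberg adjustment over all genes tested and a threshold of 0.05. Fold changes on this scale understate those of low genes. Reads per gene were recovered from TPM and the mean normalized counts (whole to within 0.05 in 99.9% of values for genes averaging under 5, in 98.5% for those of 5 to 50, and approximate above). Reads were tested with limma-voom as an alternative (2753 genes called). Other settings were a pseudocount of 0.1, no TPM filter or a minimum of 5, quantile normalization, median centring, TPM rescaled without 4 short noncoding RNAs (64.4% to 68.1% of TPM), eBayes without trend, a replicate block, removal of a GC and length trend (GENCODE 44, splines with 4 degrees of freedom, 97.2% of genes tested), an adjusted p under 0.01, and each library left out. The fits were tested on simulated data.

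The members and gene lists were chosen with earlier results of these data known. Named genes are the 10 members, the other listed ligands, receptors, inhibitors and ligand release genes, called genes of the other lists, NEAT1, and the 3 genes nearest to EGFR. The result of 1 marker gene is not reported here.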

Additional observations from a re-analysis of the deposited data

How the results depend on the processing

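Of all genes tested, 505 were called with no TPM filter, 2753 with voom on recovered reads, 3371 with the GC and length trend removed, 3348 with that and the replicate block, 719 at an adjusted p under 0.01, and 759 to 2083 when 1 library was left out, against 1498 as reported. The lowest counts were those without CsiRNA replicate 1 (759) and without NEAT1siRNA replicate 3 (838). Of the 10 genes, 3 were called as reported, 1 with no TPM filter (HBEGF), 2 at an adjusted p under 0.01, and 2 to 4 when 1 library was left out. Of the listed genes, 14 were called as reported, 4 with no TPM filter, 22 with quantile normalization, 25 with voom, 35 with the GC and length trend removed, 33 with that and the replicate block, and 5 to 15 when 1 library was left out (5 without CsiRNA replicate 1, 6 without NEAT1siRNA replicate 3, 9 without CsiRNA replicate 2). The fit with no filter was made and adjusted over 18531 genes, and each fit that left 1 library out had fewer libraries. The causes of these differences in number were not tested. No called fold change named in the text reversed. Same-numbered libraries had correlations of -0.03, 0.25 and -0.11 between their deviations from the group means. Those deviations also followed GC content, so these values cannot tell whether the numbers pair the samples. With the replicate block 1640 genes were called, 3 of the 10 members and 13 listed genes. Depth limits AREG, EREG, BTC, TGFA and ERBB3, at 17 reads or fewer in every library.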

Other observations

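Of the 10 scarce ligands and receptors (AREG, EREG, BTC, TGFA, EGF, EPGN, NRG2, NRG3, ERBB3 and ERBB4), 5 had their highest value in NEAT1siRNA replicate 2, where their reads summed to 43, against 15 to 22 in each of the other 5 libraries. Among 4316 scarce genes of the whole table, 15.3% had their highest value in that library. These values were looked at after the data were seen, and the difference was not tested.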
